A study of Homo sapiens with 9 samples.

Results

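Isolated open regions are stretches of accessible chromatin that lie more than 100 kb from any constitutive region, meaning a region with a called peak in all 9 libraries of the series. Peaks on chromosomes 1 to 22 and X were merged across the 9 lists where they shared at least 1 bp, which gave 128994 regions. A library was said to hold a region if one of its peaks overlapped it. The isolated regions were held by at least 3 and at most 8 libraries, and 2085 regions met the rule. The other 35754 regions held by 3 to 8 libraries lay within 100 kb of a constitutive region and are called near regions here. Members were thus chosen by the number of libraries with a called peak and by position, and not by the treatment of those libraries.

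The libraries came from ATAC-seq, an assay in which a transposase cuts accessible DNA, in 22Rv1 cells, an established human prostate carcinoma line. In every group the cells had been edited to express SF3B1 with the C1111S change, a cysteine-to-serine substitution in a core subunit of the splicing machinery. There were 3 libraries from cells given WX-02-23 at 20 µM, 3 from cells given WX-02-43 at 20 µM, and 3 from cells given DMSO (0.1%), each for 3 h. WX-02-23 and WX-02-43 are covalent small molecules that the labels call stereoprobes, and the series concerns their action on FOXA1. The study is limited to one edited line, one dose and one time, and the labels do not say whether the line was a single clone or whether replicates were separate cultures. The p-values below therefore speak of the variation among these 9 libraries alone, and that variation may be technical. An annotation of the build of the files (hg19) was not used here, so regions are given without gene names and the prostate identity of the cells was not checked against marker genes.

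Most open chromatin in a cell line is clustered around promoters and their enhancers, and long intervals between such clusters are usually gene-poor and compacted by nucleosomes. FOXA1 is a pioneer factor, a transcription factor that can bind its DNA site on nucleosomes and open the chromatin around it, and in prostate epithelium it prepares enhancers for the androgen receptor. A solitary accessible region inside a closed interval lies outside such clusters, where distal regulatory elements are often found.

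The lists held between 81962 and 105132 peaks on these chromosomes. The most frequent local background, solved from the deposited fold and p-value, was 1 to 1.33 fragments with WX-02-23, 1.22 to 1.41 with WX-02-43 and 1.09 to 1.23 in DMSO. In isolated regions the median pileup at the summit was 11 to 13 fragments per library, against 29 to 38 in constitutive regions, so these regions stood close to the limit of calling. Where a library lacks a peak, the signal stayed below the calling threshold, and the chromatin need not have been closed. The peak names number the libraries from 1 to 9, with 4 to 6 for WX-02-23, 7 to 9 for WX-02-43 and 1 to 3 for DMSO, so library position and treatment cannot be told apart.

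The isolated regions were narrow and modest in strength. Their median width was 324 bp, against 314 bp for near regions and 621 bp for constitutive regions. The median fold enrichment at the summit, the authors' own per-peak ratio over local background, was 5.81 in isolated regions, 5.4 in near regions and 8.87 in constitutive regions. The median pileup was 12 fragments in isolated regions, 14 in near regions and 33 in constitutive regions. Isolated regions thus had a higher fold than near regions but fewer fragments, with a median −log10 q of 6.92 against 7. The widest isolated region measured 1067 bp, and the highest fold in any library was 16.4. Of the 2085 regions, 464 were held by 3 libraries and 359 by 8, with 300 to 352 at each number between. Regions held by 8 libraries were wider (median 382 bp) and had a higher fold (median 6.3) than those held by 3 (285 bp and 5.38). The rule sets the number of libraries, and fold and width move with the chance of a call, so these values are a description only.

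Distance to the nearest constitutive region ran from 100.045 kb to 1538.67 kb, with a median of 143.154 kb. In all, 500 regions (24%) lay more than 200 kb away, 33 more than 500 kb and 5 more than 1000 kb. The members just inside the threshold were chr21:37118022-37118404, held by 3 libraries, chr15:81989871-81990126, held by 6, and chr16:52202762-52203059, held by 4, with mean folds of 5.24, 5.61 and 5.51. The regions just outside it were chr5:73213340-73213693, held by 4, chr8:83574660-83574885, held by 3, and chr5:151784694-151785082, held by 8, with mean folds of 5.05, 5.03 and 8.14. The threshold thus falls within a continuous range of distances, and apart from the last of these regions the values on its sides were alike.

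The 5 farthest regions lay in the 2 widest of those intervals between constitutive regions that held an isolated region. Of these, 4 were on chromosome 9, at chr9:47265892-47266166, chr9:47204323-47204581, chr9:47184281-47184568 and chr9:46844164-46844436, inside one interval of 20731 kb between constitutive regions. Chromosome 9 carries a large block of heterochromatin beside its centromere, and whether these regions lie in it was not analysed here. The farthest, at 1538.67 kb, had a fold of 6.99 in WX-02-23 replicate 2, of 5.87 and 5.81 in WX-02-43 replicates 2 and 3, and of 6.53 and 6.27 in DMSO replicates 1 and 3. The remaining one, chr11:51532068-51532556, stood 1242.36 kb from constitutive chromatin in an interval of 4835 kb and was held by 8 libraries. Its fold was 7.3, 7.99 and 10 with WX-02-23, 4.95, 6.29 and 7.05 with WX-02-43, and 5.6 and 6.72 in DMSO replicates 1 and 3. The WX-02-23 values were all above the DMSO values, while those of WX-02-43 overlapped them. None of these 5 regions was held by all libraries of one treatment and none of another.

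Isolated regions were spread unevenly over the genome. Chromosome 2 held 248 of them, chromosome X 202, chromosome 4 188 and chromosome 5 175, whereas chromosome 19 held 9 and chromosome 22 held 8. As a share of the regions held by 3 to 8 libraries, they made up 18.1% on chromosome X, 9.39% on chromosome 2, 8.49% on chromosome 4 and 8.2% on chromosome 13, against 0.883% on chromosome 19 and 1.37% on chromosome 22. Constitutive regions were sparsest on chromosome X, at 9.68 per Mb, and densest on chromosome 19, at 46 per Mb. Since the rule asks for distance from constitutive regions, this order follows in part from the rule.

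The 2085 regions fell into 1031 intervals between neighbouring constitutive regions, and 533 of these intervals held a single one. The median interval spanned 353.354 kb. At the other end, 77 intervals held 5 or more and together contained 473 regions. The median distance to the next isolated region was 58.355 kb, and 396 regions (19%) had another within 10 kb. Isolation from constitutive chromatin therefore did not mean isolation from other variable regions.

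Each library held between 717 and 1656 of the 2085 isolated regions. With WX-02-23 the libraries held 1656, 1297 and 1171 (79.4%, 62.2% and 56.2%). With WX-02-43 they held 855, 1367 and 1522 (41%, 65.6% and 73%), and in DMSO 717, 1062 and 1482 (34.4%, 50.9% and 71.1%). The largest half-width of the 95% Wilson interval of these shares was 2.14 percentage points, which covers counting error only. The groups overlapped widely, and the lowest and the highest library differed by more than any pair of group means.

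On average 65.9% ± 12.1 of isolated regions were held with WX-02-23, 59.9% ± 16.7 with WX-02-43 and 52.1% ± 18.4 in DMSO (SD, n = 3 each). The difference was 13.8 points for WX-02-23 over DMSO (exact permutation p = 0.4, two-sided, adjusted p = 0.7 over 3 pairs), with a 90% interval from -14.9 to 45 points. It was 7.72 points for WX-02-43 over DMSO (exact permutation p = 0.6, adjusted p = 0.7), with an interval from -30.1 to 38.6, and it was -1.15 without DMSO replicate 1. For WX-02-23 over WX-02-43 it was 6.08 points (exact permutation p = 0.7, adjusted p = 0.7), with an interval from -16.8 to 38.4. That last value was -0.67 when WX-02-23 replicate 1 was left out, and leaving out WX-02-43 replicate 1 gave -3.35. With 3 libraries against 3 no p below 0.1 is possible, and WX-02-23 against the other 6 libraries gave 9.94 points (exact permutation p = 0.393). All 3 groups together gave p = 0.575 over 280 partitions by the exact permutation test. The raw share moved with list length, since the longest list (105132 peaks) held the most isolated regions and the shortest (81962) the fewest.

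Set against near regions of the same library, the isolated regions separated DMSO from both stereoprobes. The WX-02-23 libraries held 79.9%, 58.4% and 57.2% of near regions, so that isolated minus near came to -0.47, 3.8 and -1 percentage points. The WX-02-43 libraries held 40.4%, 65.2% and 70.1% of near regions, and their differences were 0.63, 0.32 and 2.88 points. The DMSO libraries held 40.3%, 58.9% and 77.5% of near regions, and their differences were -5.93, -7.98 and -6.39 points. Every DMSO library held isolated regions less often than near regions by more than 5 points, whereas the lowest stereoprobe value was -1.

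**Figure D1:**
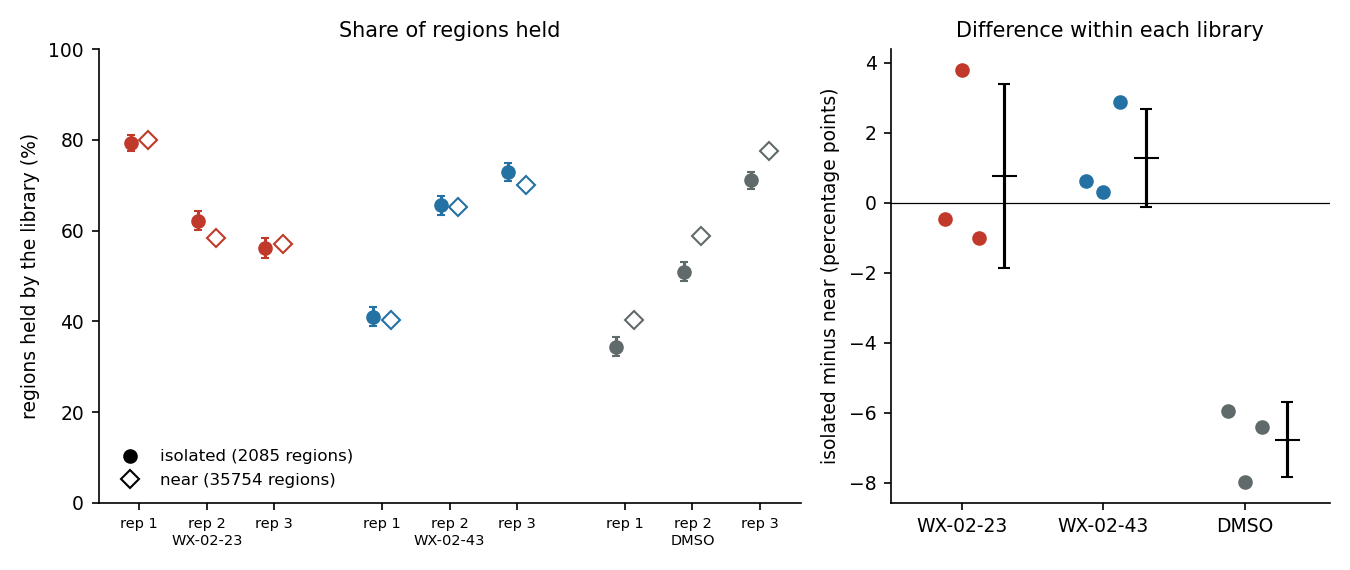
Share of regions held by each library (left, %, isolated as filled circles with 95% Wilson intervals, near as open diamonds) and the difference between them within each library (right, percentage points, with the mean ± SD of 3 libraries beside the points). Isolated minus near lies between -1 and 3.8 points in the 6 stereoprobe libraries and between -7.98 and -5.93 in the 3 DMSO libraries.

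The difference between isolated and near regions averaged 0.78 ± 2.63 points with WX-02-23, 1.28 ± 1.4 with WX-02-43 and -6.77 ± 1.07 in DMSO (SD, n = 3 each). Differences between the 3 groups made up 85.9% of the sum of squares between libraries (exact permutation p = 0.025 over 280 partitions into 3 groups). The mean with WX-02-23 was 7.54 points above that of DMSO, with a 90% interval from 4.94 to 11.8 (exact permutation p = 0.1, adjusted p = 0.15). The mean with WX-02-43 was 8.05 points above that of DMSO, with an interval from 6.26 to 10.9 (exact permutation p = 0.1, adjusted p = 0.15). In both pairs 0.1 is the smallest p that 20 splits allow, and the replicate groups did not overlap. WX-02-23 minus WX-02-43 was -0.5 points, with an interval from -3.88 to 3.47 (exact permutation p = 0.7, adjusted p = 0.7), and its sign changed when a single library was left out, to 0.12 or 0.39 for WX-02-23 replicates 1 and 3 and to 0.3 for WX-02-43 replicate 3. The compounds were thus not told apart by this measure, within those limits. WX-02-23 against the other 6 libraries gave 3.52 points (exact permutation p = 0.31). The 6 stereoprobe libraries against DMSO, a comparison added after these values were seen, gave 7.8 points (exact permutation p = 0.0119, the smallest of 84 splits). All comparisons with DMSO use the same 3 control libraries.

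DMSO also stood below both stereoprobes in other cuts of the data. In lists shortened to 81962 peaks each, isolated minus near was -1.19, -1.05 and 0.64 points with WX-02-23, 2.53, 0.27 and 1.94 with WX-02-43, and -5.11, -5.27 and -2.22 in DMSO. The difference from DMSO was then smaller for WX-02-23, at 3.67 points, and 5.78 points for WX-02-43, and at a −log10 q of at least 5 it was 3.66 and 4.81 points, with the groups still apart (exact permutation p = 0.1 each). Near regions weighted to the chromosomes of the isolated regions gave -0.22, 3.35 and -0.46 with WX-02-23, 0.04, -0.61 and 1.97 with WX-02-43, and -5.43, -7.06 and -6.04 in DMSO. A set that the rule had left out, the regions held by 1 or 2 libraries, comprised 1817 far from constitutive chromatin and 29701 near it. There the differences were 2.98, 3.86 and -1.2 points with WX-02-23, -0.38, 2.68 and 4.12 with WX-02-43, and -1.3, -3.97 and -5.74 in DMSO. In each of these settings the lowest stereoprobe library still stood above the highest DMSO library, and in the last the closest values were -1.2 with WX-02-23 and -1.3 in DMSO. In that set the 3 groups together gave p = 0.0643 by the exact permutation test, which no longer passed 0.05. Weighting by chromosome and the use of regions held by 1 or 2 libraries were chosen after the data were seen.

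The shift was gradual with distance rather than a step at 100 kb. Within 10 kb of constitutive chromatin the mean share held was 64.8% with WX-02-23, 57.1% with WX-02-43 and 61.3% in DMSO. DMSO thus stood above WX-02-43 there, whereas at 200 to 500 kb the means were 66.7%, 58.2% and 49.8%. Relative to regions within 10 kb of constitutive chromatin, the mean difference in DMSO was -2.82 points at 10 to 25 kb, -5.34 points at 25 to 50 kb and -6.66 points at 50 to 100 kb. Beyond the threshold it was -8.56 points at 100 to 200 kb and -11.6 points at 200 to 500 kb. With WX-02-23 the corresponding means were 0.46, 0.71, 1.31, 0.94 and 1.9 points, and with WX-02-43 they were 1.62, 3.46, 4.22, 3.22 and 1.16 points. From 10 to 100 kb WX-02-23 and DMSO still overlapped, and at 50 to 100 kb the lowest WX-02-23 library stood at -3.08 points and the highest DMSO library at -2.74. WX-02-43 and DMSO did not overlap in these bins, and the lowest WX-02-43 library at 50 to 100 kb stood at 1.51 points. Between 200 and 500 kb, over 467 regions, the libraries with WX-02-23 lay between -3.33 and 9.73 points, those with WX-02-43 between -1.33 and 4.34 and those in DMSO between -13 and -9.73. Beyond 500 kb only 33 regions remained, and the DMSO libraries there spread from -20.1 to 2.28 points and overlapped the others.

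**Figure D2:**
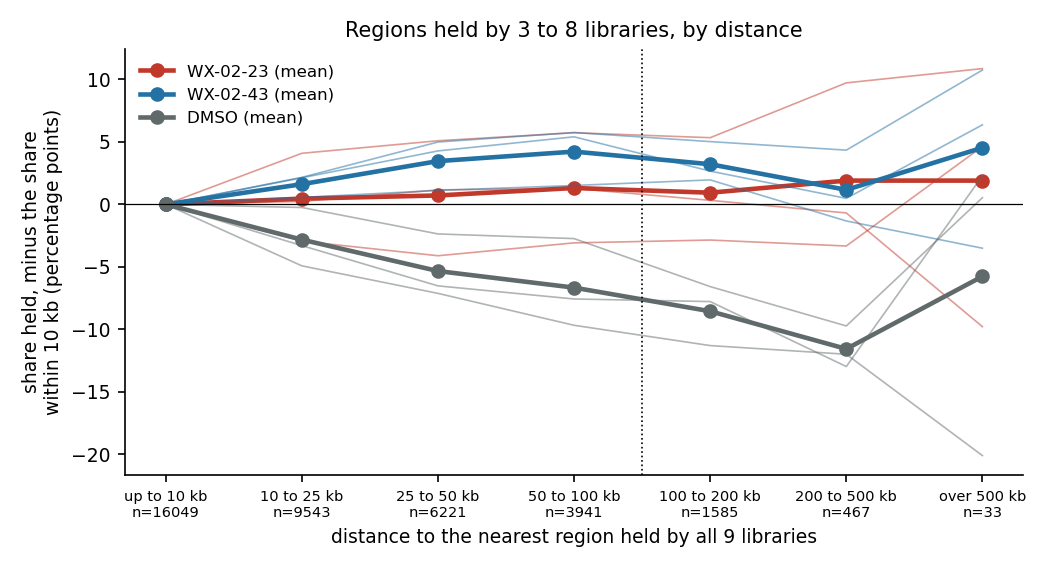
Share of regions held by 3 to 8 libraries in bins of distance to the nearest constitutive region, minus the share within 10 kb in the same library (percentage points); thin lines are libraries, thick lines the means of 3, and the dotted line marks 100 kb. The DMSO mean reaches -11.6 points at 200 to 500 kb, where the WX-02-23 and WX-02-43 means are 1.9 and 1.16.

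DMSO stood below both stereoprobes on most chromosomes. On the 17 chromosomes with at least 50 isolated regions, the mean of isolated minus near with WX-02-23 was above that of DMSO on 15, and with WX-02-43 on all 17. WX-02-23 was above WX-02-43 on 11 of the 17. Chromosome 18 had the largest value with WX-02-23 among them, 12.2 points over 66 regions, where WX-02-43 gave -3.65 and DMSO -8.55. Chromosomes 6 and 9 were the exceptions for WX-02-23. On chromosome 6 the means were 0.62 with WX-02-23, 3.15 with WX-02-43 and 1.07 in DMSO, and on chromosome 9 they were -5.95, 7.92 and -3.55. On chromosome X, which held the second-highest number of isolated regions, they were 0.6, 0.57 and -1.98. These chromosomes come from the same 9 libraries and are not independent replicates.

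Of the isolated regions, 776 (37.2%) were held by all 3 WX-02-23 libraries, 569 (27.3%) by all 3 WX-02-43 libraries and 408 (19.6%) by all 3 DMSO libraries. Among near regions these shares were 35.8%, 25.5% and 26%. Conversely, 200 isolated regions (9.59%) were held by no WX-02-23 library, 226 (10.8%) by no WX-02-43 library and 357 (17.1%) by no DMSO library. Among near regions these shares were 9.06%, 11.5% and 11.5%, so only the DMSO share stood well apart. More WX-02-23 than DMSO libraries held 1002 isolated regions (48.1%), and fewer held 539 (25.9%), where the shares among near regions were 41.5% and 31.6%. More WX-02-43 than DMSO libraries held 844 (40.5%), and fewer held 525 (25.2%), whereas among near regions the shares for this pair were 33% and 33.3%.

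WX-02-23 against DMSO was next read region by region, with a region gained if all libraries of the first group and none of the second held it and lost if the opposite held. WX-02-23 gained 186 isolated regions (8.92%), where 6.02% of all regions held by 3 to 8 libraries were gained, and lost 43 (2.06%), where 2.52% of all were lost. Gained regions made up 81.2% of these isolated calls, and 60.9% in lists of equal length, where 151 were gained and 97 lost. Among all regions held by 3 to 8 libraries these shares were 70.5% and 55.4%, so gained calls also outnumbered lost ones in general. Of the 186 gained, 93 were held by no WX-02-43 library, 57 by 1, 24 by 2 and 12 by all 3. As shares these were 50%, 30.6%, 12.9% and 6.45%, close to the 51.1%, 26.1%, 16.7% and 6.07% of near regions gained in this pair. The 93 held by no WX-02-43 library had exactly 3 libraries and met the rule through WX-02-23 alone. With at least 4 libraries the remaining 93 were gained and 41 were lost. The gained share was then 69.4%, where it was 56.5% among all regions. Of the 43 lost, 21 (48.8%) were still held by all 3 WX-02-43 libraries and 2 (4.65%) by none. Among near regions lost in this pair these shares were 49.2% and 10%. The gained count was 304 without DMSO replicate 3, and the lost count was 96 when WX-02-23 replicate 1 was left out, 104 without DMSO replicate 1 and 68 without DMSO replicate 2, settings in which the criterion covers one library less. These counts have no test of their own.

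With WX-02-43 against DMSO, 46 isolated regions were gained (2.21%), where 1.13% of all regions held by 3 to 8 libraries were gained, and 7 were lost (0.336%), where 1.25% of all were lost. Among the isolated calls 86.8% were gained, against 47.5% among all regions. In equal-length lists 43 were gained and 19 lost, a gained share of 69.4%, where it was 46.9% among all regions. At the stricter threshold of a −log10 q of at least 5 there were 23 gained and 29 lost, a share of 44.2%, where it was 32.2% among all regions. Gained isolated regions thus no longer outnumbered lost ones there, while their share stayed above that of all regions. Leaving out WX-02-43 replicate 1 raised the gained count to 103, and leaving out DMSO replicate 3 raised it to 118. The lost count was 15, 23 and 30 without WX-02-43 replicates 1, 2 and 3, and 47 and 16 without DMSO replicates 1 and 2. Most of the 46 gained regions also had a peak with WX-02-23, in all 3 of its libraries for 12, in 2 for 19 and in 1 for 8. The share with no WX-02-23 peak was 15.2%, against 22% of near regions gained in this pair, and the share held by all 3 was 26.1%, against 33.3%.

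Between the stereoprobes, WX-02-23 gained 122 isolated regions relative to WX-02-43 (5.85%), where 4.88% of all regions held by 3 to 8 libraries were gained, and lost 61 (2.93%), where 2.75% of all were lost. Gained regions were 66.7% of these isolated calls in the deposited lists and 52.2% in lists of equal length (107 gained and 98 lost). Among all regions held by 3 to 8 libraries these shares were 64% and 51.5%, close to those of the isolated regions. With at least 4 libraries, where regions held by WX-02-23 alone drop out, lost regions outnumbered gained ones. There were then 29 gained and 54 lost, a gained share of 34.9%, where it was 42% among all regions. Of the 122 gained, 93 (76.2%) were held by no DMSO library either, against 61.9% of near regions gained in this pair. Of the 61 lost, 21 (34.4%) were held by all 3 DMSO libraries, against 45.8% of near regions lost. Leaving out WX-02-43 replicate 3 raised the gained count to 201. Leaving out WX-02-23 replicate 1 or WX-02-43 replicate 1 raised the lost count to 139 or 124.

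**Figure D3:**
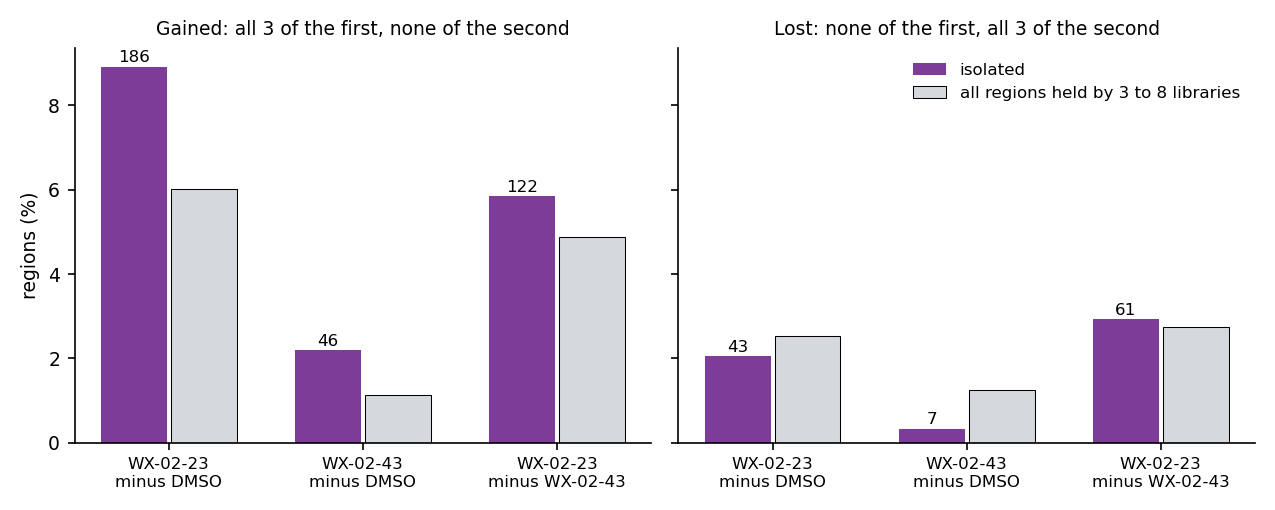
Percentage of isolated regions (purple, counts above the bars) and of all regions held by 3 to 8 libraries (grey) that were gained (left) or lost (right) in each pair of groups. For WX-02-43 minus DMSO, 46 isolated regions were gained and 7 lost, 2.21% and 0.336%, where all regions gave 1.13% and 1.25%.

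Against the other 6 libraries, WX-02-23 alone held 93 isolated regions (4.46%), where 3.07% of all regions held by 3 to 8 libraries were gained, and lacked 21 that all 6 others held (1.01%), where 1.24% of all were lost. The gained share of these calls was 81.6%, and 61.4% in equal-length lists, where all regions gave 71.2% and 57.4%. All 93 were held by exactly 3 libraries, so they met the minimum of the rule through WX-02-23 alone. With at least 4 libraries no region can be gained in this comparison, while 21 were still lost. The gained share therefore depends on that minimum. Leaving out WX-02-23 replicate 1 raised the lost count to 56, and leaving out DMSO replicate 1 raised it to 36. Both stereoprobes together gained 12 isolated regions (0.576%), held by all 6 of their libraries and by no DMSO library, where 0.367% of all regions were gained, and lost 2 (0.0959%), where 0.246% of all were lost. That gained count was 19 and 22 without WX-02-23 replicates 2 and 3, 28 when WX-02-43 replicate 1 was left out and 49 when DMSO replicate 3 was. Leaving out WX-02-43 replicate 1 or 3 gave a lost count of 5. The 2 regions lost with all 9 libraries in use are those held by DMSO alone. A further 7 isolated regions (0.336%) were held by WX-02-43 alone, where 0.235% of near regions were. Groups of this size are too few to characterise.

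The strongest isolated region gained with WX-02-23 against the other 6 was chr4:127375150-127375669, 115.3 kb from constitutive chromatin. Its fold was 9.01, 12.4 and 12.2 in the WX-02-23 libraries, from 20, 26 and 25 fragments at the summit, and no WX-02-43 or DMSO library had a peak. It also had the highest mean fold of all 2085 isolated regions, 11.2 ± 1.92 (SD, n = 3). A region on the same chromosome, chr4:67172131-67172478, lay 268 kb from constitutive chromatin and had a fold of 10.3, 10.5 and 7.62 with WX-02-23. The third, chr5:77486057-77486706, had a fold of 14.6, 9.49 and 7.62 with WX-02-23, a mean of 10.6 ± 3.61 (SD, n = 3), and was the most variable of the 6. The next, chr12:86463973-86464600, chr6:78842056-78842673 and chr2:49952184-49952506, averaged 8.59 ± 1.24, 7.76 ± 1.06 and 8.34 ± 1.24 with WX-02-23 (SD, n = 3 each). These regions were ranked on the lists that held them, so their strength is a result of the choice.

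The first isolated region lost with WX-02-23 was chr14:84295298-84296018, 189 kb from constitutive chromatin. No WX-02-23 library had a peak there, whereas the fold was 7.66, 8.4 and 7.26 with WX-02-43 and 7.42, 7.47 and 9.82 in DMSO. The second, chr12:73347116-73347579, lay 328.9 kb away, again without a WX-02-23 peak, and had a fold of 6.3, 8.81 and 5.81 with WX-02-43 and of 6.53, 8.63 and 9.41 in DMSO. Values with WX-02-43 and in DMSO overlapped at both regions. The other 4, chr5:170615080-170615457, chr6:156758457-156759058, chr4:118124389-118124751 and chr3:135574563-135575110, averaged 7.42 ± 1.03, 8.46 ± 1.78, 6.55 ± 0.8 and 8.7 ± 2.41 over the 6 libraries (SD, n = 6 each). Over the full sets, the median fold was 5.99 in the 93 gained regions and 6.3 in the 21 lost regions, with medians of 12 and 13 fragments.

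**Figure D4:**
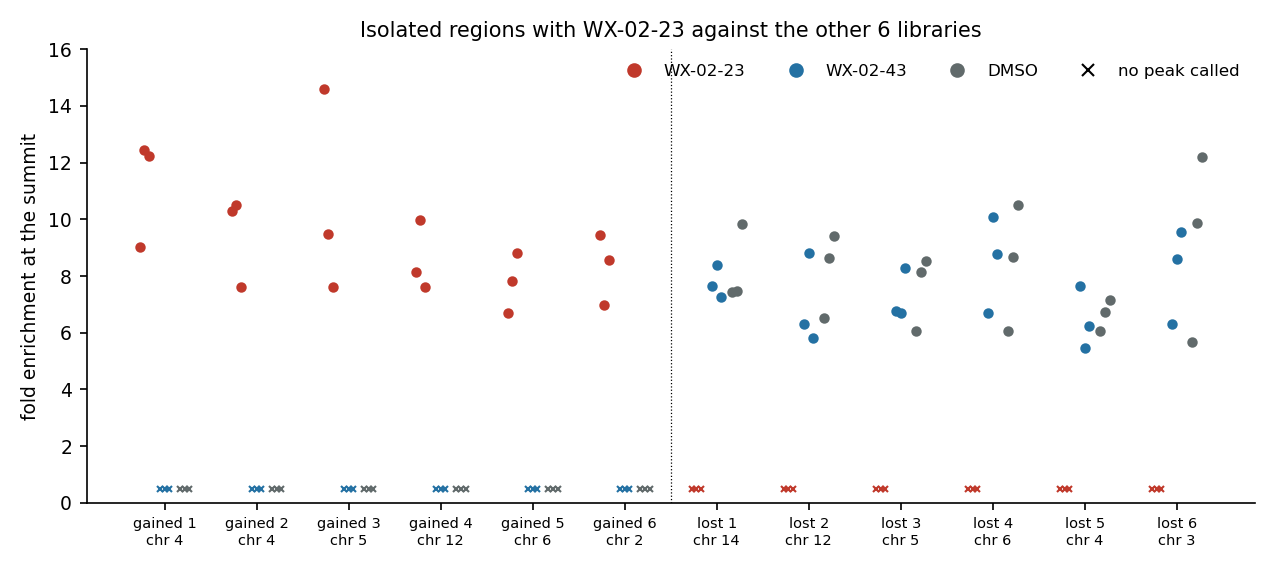
Fold enrichment at the summit in each library for the first 6 isolated regions gained and the first 6 lost with WX-02-23 against the other 6 libraries; crosses mark libraries with no called peak. Gained regions reach 14.6 with WX-02-23 and have no peak elsewhere, and lost regions reach 12.2 in DMSO with no WX-02-23 peak.

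A few strong isolated regions were graded rather than present or absent. At chr8:93370770-93371452, 254.7 kb from constitutive chromatin, the fold was 15.9, 13.4 and 16.4 with WX-02-23 (46, 33 and 42 fragments), 5.85, 5.45 and 7.47 with WX-02-43 (12, 12 and 17 fragments), and 6.53 in DMSO replicate 1 (13 fragments), with no peak in DMSO replicates 2 and 3. The WX-02-23 values did not overlap those of the other groups. At chrX:125000211-125000859 the order was the opposite. Only WX-02-23 replicate 1 had a peak, at 5.15 fold, while WX-02-43 gave 12.2, 12.2 and 12.7 and DMSO 11.1, 11.8 and 12.8. At chr3:2367807-2368255 the fold was 12.1, 11 and 12.8 with WX-02-23, 8.56, 9.23 and 9.96 with WX-02-43, and 5.75 and 10.3 in DMSO replicates 2 and 3, with no peak in DMSO replicate 1. All 3 were named for a high mean fold, and folds are the authors' values set within one library, so these differences are given without a test.

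Among the regions gained with WX-02-43 against DMSO, the first was chr16:86049855-86050333. It had a fold of 6.75, 6.04 and 7.6 with WX-02-43 and no DMSO peak, and WX-02-23 replicates 1 and 2 also held it, at 9.01 and 5.99. The region chr11:87433447-87434190 was held by all 6 stereoprobe libraries, at 8.15, 7.49 and 6.67 with WX-02-23 and 6.75, 9.23 and 5.39 with WX-02-43, and by no DMSO library. At chr2:229613806-229614074 the fold was 5.85, 5.87 and 6.64 with WX-02-43 and 7.3 and 6.67 in WX-02-23 replicates 1 and 3. The first region lost with WX-02-43 was chr2:156046899-156047192, which had no WX-02-43 peak, 6.53, 7.19 and 8.51 fold in DMSO, and 7.72, 6.49 and 5.72 with WX-02-23. The other 2 lost regions named, chr8:14392033-14392303 and chr2:171181132-171181347, averaged 6.33 ± 0.96 and 4.96 ± 0.31 in DMSO (SD, n = 3 each), and the second was held by DMSO alone. All of these peaks were weak, at 9 to 21 fragments.

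The further regions named for pairs with WX-02-23 repeated these layouts. Those gained against DMSO, chrX:10437976-10438365, chr17:3064389-3064779 and chr8:93426448-93426763, averaged 7.73 ± 0.8, 7.64 ± 1.23 and 7.51 ± 1.32 with WX-02-23 and had no peak in any other library. The last lay in the same interval on chromosome 8 as the graded region above, which held 8 isolated regions in all. Those gained against WX-02-43, chr3:82446053-82446611, chr6:96489103-96489519 and chr8:14530335-14530768, averaged 7.26 ± 0.84, 7.26 ± 0.84 and 7.76 ± 1.28 with WX-02-23 and likewise had no other peak. Of those lost against DMSO, chr9:17807720-17807950 averaged 6.23 ± 0.16 in DMSO and was held by WX-02-43 replicate 3 alone outside it, chr11:31705918-31706495 averaged 7.28 ± 0.35, and chr4:35521751-35522078 averaged 6.93 ± 1.77 (SD, n = 3 each). Of those lost against WX-02-43, chr14:84776490-84776821, chr11:87610561-87610987 and chr5:163273594-163273974 averaged 6.12 ± 0.45, 6.16 ± 0.48 and 7.27 ± 0.67 with WX-02-43, and DMSO held the first pair in 2 libraries and the last in 3.

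The interval with the most isolated regions lay on chromosome 5, from 27523977 to 28713823 between constitutive regions, and spanned 1190 kb. Its 17 isolated regions stretched from 27719354 to 28576480. The WX-02-23 libraries held 14, 10 and 12 of them, the WX-02-43 libraries 7, 11 and 10, and the DMSO libraries 4, 7 and 7. Both stereoprobes were at or above the highest DMSO library in every replicate, with WX-02-43 replicate 1 equal to it. WX-02-23 gained 4 of the 17 against DMSO and lost none, where 8.92% of all isolated regions were gained and 2.06% lost. No interval held more gained regions, but this one was chosen for its many members. Over all 2085 isolated regions the WX-02-23 libraries held 79.4%, 62.2% and 56.2%. The WX-02-43 libraries held 41%, 65.6% and 73% of them, and the DMSO libraries 34.4%, 50.9% and 71.1%. Single intervals were not tested. Next came an interval on chromosome 12 from 73018254 to 73777429, with 9 isolated regions, of which the libraries held 5, 6 and 4 with WX-02-23, 6, 7 and 8 with WX-02-43, and 4, 4 and 7 in DMSO. WX-02-23 gained 1 and lost 2 of these, the lost region chr12:73347116-73347579 among them. An interval on chromosome 4 from 188748425 to 189353503 also held 9, and the libraries had 7, 5 and 6 with WX-02-23, 2, 4 and 6 with WX-02-43, and 2, 3 and 4 in DMSO.

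**Figure D5:**
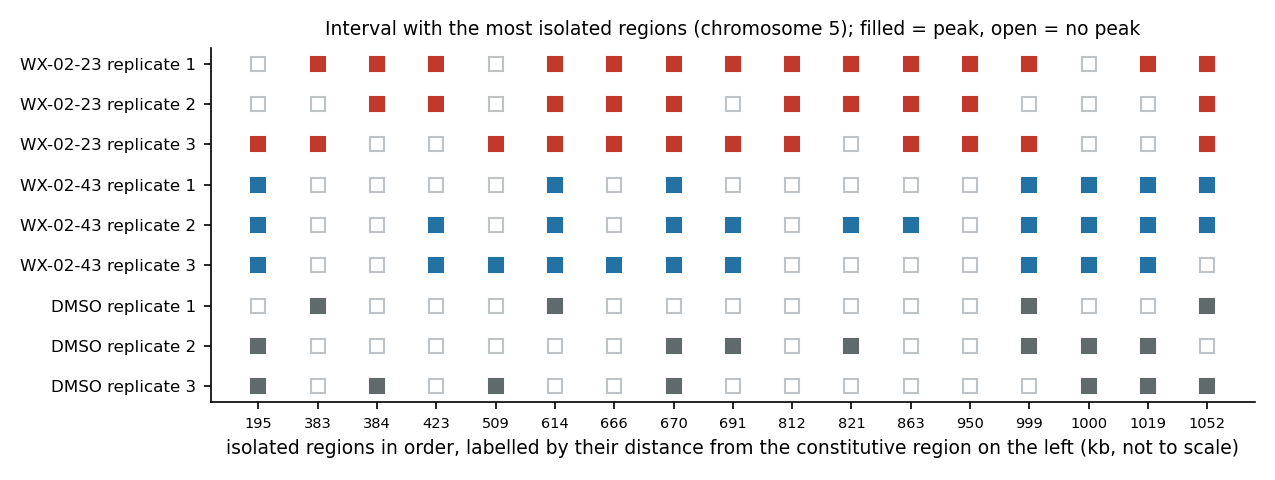
The 17 isolated regions of the chromosome 5 interval in genome order (columns, labelled by distance in kb from the constitutive region on the left) in each library (rows); filled squares mark a called peak and open squares none. The WX-02-23 libraries fill 10 to 14 of 17 squares, the WX-02-43 libraries 7 to 11 and the DMSO libraries 4 to 7.

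Gained regions were spread over many intervals. The 186 isolated regions gained with WX-02-23 against DMSO lay in 172 intervals, and 11 intervals held 2 or more. Of the 1031 intervals with isolated regions, 533 held a single region and so could not hold 2 gained ones. Whether gained regions were less clustered than other isolated regions was not tested. The 43 lost regions lay in 40 intervals, and only 2 intervals held both a gained and a lost region. Most intervals with a gained region thus held a single one, and none held more than 4.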

How the data were processed

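ATAC-seq peak lists of 9 libraries were analysed. The submitters' processing notes name Bowtie2 as aligner, MACS2 as peak caller and hg19 as genome build. For versions, settings, the shift of read ends, duplicate removal and controls, nothing is given in the sources used here. Each list came from one library. The deposited lists give, per peak, an interval, a score (the −log10 q on a larger scale, not used), a fold enrichment over local background (a ratio), and −log10 p and −log10 q values. The lowest −log10 q was 2 to 2.17 per list and the shortest peak 150 bp. The largest overlap of identical intervals between lists was 0.116%.

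Lists were merged as described, with Python 3.11.15, pandas 2.3.3, numpy 2.4.6 and scipy 1.17.1. Where a library had several peaks in a region, that with the highest −log10 q gave its fold. Summit pileup and background were solved from fold and −log10 p under the Poisson formula of MACS2, and matched the deposited −log10 p within 0.002 for at least 99.995% of peaks per list. Read totals were not used. Libraries were compared by exact permutation tests of 1 value per library, two-sided for pairs and adjusted by Benjamini-Hochberg over 3 pairs. The 90% intervals hold the shifts these tests do not exclude. Scripts were tested on simulated data.

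Regions were named by rule: they were ordered by their lowest standing in −log10 q among the lists with a peak, and the top 6 gained and 6 lost for WX-02-23 against the other 6 libraries were taken, then the top 3 in each direction for each pair (leaving out those already named), the 5 farthest, the 5 with the highest mean fold, and 3 on each side of 100 kb. The 3 intervals with the most members were also described. The members and tests were chosen with earlier results of these data known. Coordinates are hg19, counted from 1. No sequence of that build was used, so the planned gene names, marker genes, motifs and sequences are not reported here.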

Additional observations from a re-analysis of the deposited data

Results flagged for a closer look

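The difference between isolated and near regions had opposite signs in all libraries of WX-02-43 and of DMSO. It was above 0 in each WX-02-43 library and below 0 in each DMSO library, and the means differed by 8.05 points (exact permutation p = 0.1, the smallest possible for 3 libraries against 3). The sign with WX-02-43 did not hold in each setting. Replicate 2 gave -0.61 with near regions weighted by chromosome, and replicate 1 gave -0.38 in regions held by 1 or 2 libraries. The values also share a fixed sum, set by the mean number of libraries per region (5.34 isolated, 5.48 near). Low DMSO values thus go with higher values elsewhere.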

How the results depend on the processing

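In exact permutation tests, isolated minus near kept its sign for WX-02-23 minus DMSO (3.66 to 10 points) and WX-02-43 minus DMSO (4.81 to 9.25 points) under all 13 alternatives, and for both stereoprobes minus DMSO (4.23 to 9.16 points, p from 0.0119 to 0.037). Leaving out each library gave 6.03 to 8.43, 7.24 to 8.52 and 7.19 to 8.21 points, in that order. For WX-02-23 minus WX-02-43 it gave -2.01 to 0.39, and for WX-02-23 minus the other 6 libraries 2.01 to 4.65. With a distance over 200 kb WX-02-23 minus WX-02-43 turned to 1.67, and with near regions weighted by chromosome to 0.42. In regions held by 1 or 2 libraries the share between the 3 groups was 64.8% (exact permutation p = 0.0643). In the isolated regions themselves, leaving out each library gave 81.4% to 94.2%. The share of isolated regions held turned to -0.67 for WX-02-43 minus DMSO at a −log10 q of at least 5, and in equal-length lists to -2.39 for WX-02-23 minus WX-02-43 and -0.28 for WX-02-23 minus the other 6. Without each library it ran from 4.92 to 23.3 (WX-02-23 minus DMSO), -1.15 to 17.2 (WX-02-43 minus DMSO), -3.35 to 12.6 (WX-02-23 minus WX-02-43), 3.19 to 14.8 (WX-02-23 minus the other 6) and 1.89 to 20.2 points (both stereoprobes minus DMSO), and from 5.44% to 40.4% between the 3 groups. The cause of these changes of sign was not tested.

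The counts that moved by more than 1.5 times were as follows, and the cause was not tested. At a −log10 q of at least 5, the lost counts were 71 (WX-02-23 minus DMSO), 29 (WX-02-43 minus DMSO, with 23 gained), 32 (WX-02-23 minus the other 6) and 8 (both stereoprobes minus DMSO). With 50% of a region to be covered, 383 were gained and 110 lost for WX-02-23 minus DMSO, 33 lost for WX-02-43 minus DMSO, 278 gained and 122 lost for WX-02-23 minus WX-02-43, 205 gained and 56 lost for WX-02-23 minus the other 6, and 11 lost for both stereoprobes. In equal-length lists the lost counts in these 5 comparisons were 97, 19, 98, 49 and 9. Beyond 50 kb they were 466 gained and 126 lost, 86 and 26, 326 and 175, 234 and 66, and 22 and 4, in the same order. Beyond 200 kb they were 58 and 12, 6 and 1, 31 and 17, 28 and 8, and 1 and 1. With at least 4 libraries, 93 were gained for WX-02-23 minus DMSO and 29 for WX-02-23 minus WX-02-43, while 0 for WX-02-23 minus the other 6 (0 by construction) and 0 lost for both stereoprobes remained. With constitutive regions in at least 8 libraries, 3 were lost for WX-02-43 minus DMSO, 13 for WX-02-23 minus the other 6 and 1 for both stereoprobes. Without each library, gained counts ran from 186 to 304, 46 to 118, 122 to 201, 93 to 124 and 14 to 49, and lost counts from 43 to 104, 7 to 47, 61 to 139, 21 to 56 and 2 to 5.

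Of 210 alternative values, 5 changed sign, 1 no longer passed the threshold, 45 were counts that moved by more than 1.5 times, and 159 did none of these. With the replicate block, isolated minus near was unchanged in size (7.54, 8.05 and -0.5 points for the 3 pairs) with p = 0.25, 0.25 and 0.75 by exact permutation over 8 arrangements. The smallest p that 8 arrangements allow in this two-sided test is 0.25. Deviations correlated at -0.01 to 0.01 for the 9 pairs with the same replicate number and -0.01 to 0.02 for the 18 with different numbers. No pairing by number was seen in these values. They cannot exclude a shared culture or batch, since no libraries known to share one were at hand for comparison. Peaks with few fragments limit what can be called in isolated regions.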
